A study of Mus musculus with 12 samples.

Results

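Transfer RNA genes made up 433 of the 671 RNA polymerase III (pol III) loci scored in mouse liver, or 64.5%. Their members were chosen by the locus text alone, which names an amino acid and an anticodon for each, and covered 53 groups of isotype and anticodon. Each locus had 1 score for livers of Maf1-/- mice and 1 score for livers of wild-type (WT) mice. Both were pooled values of the authors, so no spread between mice and no test could be had for any tRNA gene. Scores are therefore described by their values, ratios and counts. The accompanying RNA-seq libraries came from 5 Maf1-/- and 7 WT mice, 1 library each. Both groups were C57Bl/6J mice aged 12 to 14 weeks on chow, which had food again for 4 h after a night without it, and whole perfused liver was used. The Maf1-/- mice carry a knockout of Maf1, the labels tie it to no cell type, and how the allele was made is not given in the sources used here. Which of these libraries entered the scores, and how the scores were scaled, is not given in the sources used here. In whole liver, more RNA per cell and more cells of a type cannot be told apart.

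Pol III makes tRNAs, 5S rRNA and other short RNAs. At most tRNA genes the promoter lies within the gene, as an A box near its start and a B box in the stretch that becomes the T arm. TFIIIC binds both boxes and places TFIIIB, which recruits pol III, and a run of T residues after the gene ends transcription. MAF1 binds pol III and represses it. The primary transcript is trimmed at both ends, receives a CCA tail and, for some isotypes, loses an intron beside the anticodon. Mammalian genomes hold many copies of most tRNA genes, and reads from identical copies cannot be assigned to 1 of them.

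The gene sequences below, read from the mm9 genome (NCBIM37) at the coordinates of the score table, are those with the highest Maf1-/- score of 5 groups with high scores or high ratios, of initiator Met, which starts translation, and of Gly-ACC, which had the lowest ratio among genes with sizeable scores. Capitals mark the anticodon.
n-Tg25, Gly-TCC, chr11:68854780-68854851, minus strand: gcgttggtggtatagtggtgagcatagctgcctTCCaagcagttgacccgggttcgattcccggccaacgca
n-Tg12, Gly-GCC, chr1:172975116-172975186, plus strand: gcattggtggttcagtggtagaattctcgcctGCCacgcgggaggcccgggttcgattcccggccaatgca
n-Tk18, Lys-CTT, chr9:90021347-90021419, minus strand: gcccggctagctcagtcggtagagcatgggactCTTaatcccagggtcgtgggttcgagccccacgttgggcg
n-Th5, His-GTG, chr2:122203704-122203775, plus strand: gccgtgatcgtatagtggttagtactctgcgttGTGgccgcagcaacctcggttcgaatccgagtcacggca
n-Tf6, Phe-GAA, chr19:12076726-12076798, plus strand: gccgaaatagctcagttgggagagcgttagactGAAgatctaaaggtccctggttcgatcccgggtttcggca
n-Tm6, initiator Met-CAT, chr13:23609561-23609632, plus strand: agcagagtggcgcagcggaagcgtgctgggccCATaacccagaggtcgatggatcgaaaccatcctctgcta
n-Tg1, Gly-ACC, chr11:48637230-48637303, plus strand: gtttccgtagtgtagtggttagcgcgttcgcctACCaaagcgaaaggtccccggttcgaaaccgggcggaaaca

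Of the 433 genes, 97 had a score of 0 in both groups and 336 had a score in at least 1 group. A score above 0 in both was found for 295 genes, 31 were above 0 in Maf1-/- liver only, with scores of up to 8.75, and 10 were above 0 in WT liver only, with scores of up to 3.04. Loci with the same pair of scores were counted as 1 family, which gave 305 families, 276 of them above 0 in both groups. Among the 305, 23 families held several loci, 54 loci in all. For 18 of these all members had the same anticodon, and for 5 they did not. Scores in these 5 families reached no more than 3.25. Many scores were fractions. The 433 genes were 70 to 127 bases long, 361 of them 71 to 74 bases, and held 249 different sequences. No sequence was shared by 2 anticodons. In all 433 genes the anticodon letters stood at or near the expected place, starting at base 32 to 36.

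Of the 276 families, 217 had a Maf1-/- score at least 2-fold above the WT score and 3 had one at least 2-fold below. Those 217 are 78.6%, beside 68.3% of the 441 families of the whole table and 51.2% of the 166 families of loci other than tRNA genes. At least 2-fold lower were 1.09% of tRNA families, beside 1.81% of the whole table. The count depends on the scaling of the scores: with Maf1-/- scores divided by 2.05, the median fold of the loci other than tRNA genes, 85 of the 276 families (30.8%) were at least 2-fold higher and 12 lower. The median log2 ratio over tRNA families was 1.58, a fold of 2.98, with quartiles of 1.13 and 2.15 and a range of -1.58 to 6.57. Over the other loci the median was 1.03, a fold of 2.05. With no fold required, 264 tRNA families (95.7%) were higher in Maf1-/- liver and 11 (3.99%) lower, beside 93.2% and 6.35% of the whole table and 89.2% and 10.2% of the other loci. Whether the excess over the other loci differs from what mice vary by cannot be tested with 1 value per group.

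**Figure D1:**
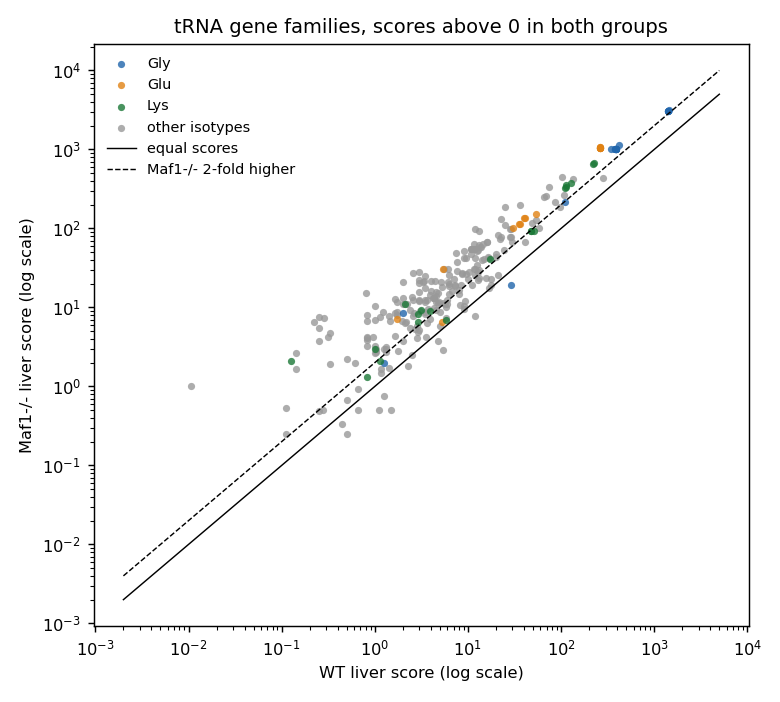
Score of each tRNA gene family above 0 in both groups, Maf1-/- liver (y axis) against WT liver (x axis), both on log scales; 276 families, with Gly, Glu and Lys families coloured. Nearly all points lie above the line of equal scores, with 217 at or above the dashed line of 2-fold.

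The ratio was much the same at low and high scores. Across families, which are not independent of each other, Spearman's rho between the mean score and the log2 ratio was 0.07, and that between the Maf1-/- and WT scores was 0.92. Of the 107 families with both scores at 10 or more, 106 were higher in Maf1-/- liver, 90 by at least 2-fold, and the median log2 ratio was 1.46. The 1 exception was Gly-ACC. n-Ta13 (Ala-AGC), with 7.83 in Maf1-/- liver and 11.9 in WT liver, was left out only by its Maf1-/- score. Families with only the WT score below 10 were left out too. Among 81 families of other loci with both scores at 10 or more, 34 were at least 2-fold higher and the median log2 ratio was 0.92. By class, the median log2 ratio over all families was 0.79 for 12 families of 4.5S RNA, 0.78 for 14 families of 5S rRNA, 1.27 for 118 families of SINEs (short repeats derived from pol III genes) and 1.02 for 22 other families. Of the 5S rRNA families, 1 of 14 was at least 2-fold higher.

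Summed over all loci, tRNA genes had a score of 57066 in Maf1-/- liver and of 21504 in WT liver. These were 5.18% of the summed score of the table in Maf1-/- liver and 3.75% in WT liver. With each family summed once, the ratio of the sums was 2.69, and over all loci it was 2.65. The other loci had a ratio of sums of 1.89.

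Scores were concentrated in a few isotypes. Gly genes held 62.1% of the summed tRNA score in Maf1-/- liver and 70.2% in WT liver, Glu genes 18.1% and 12.2%, and Lys genes 5.44% and 5.10%. The lowest sums with a score were those of Cys, elongator Met and Trp genes, at 71.2, 78.9 and 110.0 in Maf1-/- liver, against 41.8, 49.97 and 50 in WT liver. The single suppressor gene was at 0 in both. When each score was divided by gene length, 6 of 23 isotypes took another place in the order of Maf1-/- sums.

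**Figure D2:**
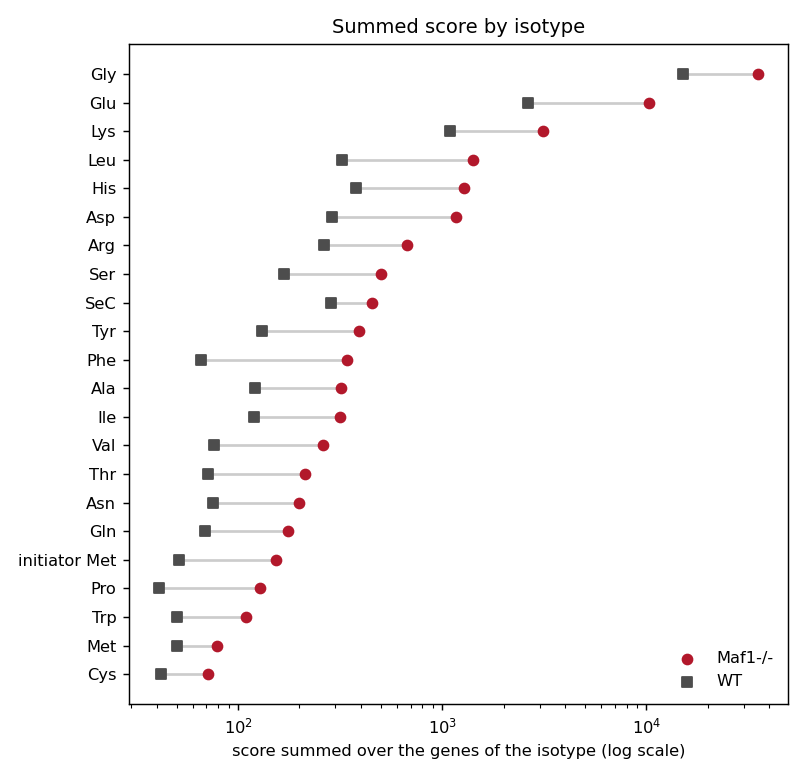
Score summed over the genes of each isotype (x axis, log scale) in Maf1-/- liver (circles) and WT liver (squares), ordered by the Maf1-/- sum. With the scores as deposited, every isotype with a score had the higher sum in Maf1-/- liver, with Gly highest at 35421 in Maf1-/- liver and 15106 in WT liver, whereas Cys, elongator Met and SeC were lower (0.83, 0.77 and 0.77 times WT) once Maf1-/- scores were divided by the median fold of the other loci.

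All 22 isotypes with a score had a higher sum in Maf1-/- liver as deposited, although Cys, elongator Met and SeC were at 0.83, 0.77 and 0.77 times WT with Maf1-/- scores divided by 2.05. In 19 of the 22 the ratio of sums, each family counted once, was at least 2, and in 2 of them after that division. The median of these ratios was 2.90. The highest were 5.19 for Phe, 4.38 for Leu, 4.00 for Asp and 3.89 for Glu. The lowest were 1.58 for elongator Met, 1.58 for SeC and 1.70 for Cys, the 3 isotypes below 2. The SeC value rests on 1 family, n-Ts2, without which it was 18.9. Gly, with most of the score, was at 2.36. Initiator Met, which is encoded apart from elongator Met, had a ratio of 2.97. As the median over families rather than the ratio of sums, 20 isotypes were at 2 or more. The 2 below were Trp at 1.57 and elongator Met at 1.90, while Cys was then at 3.42.

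**Figure D3:**
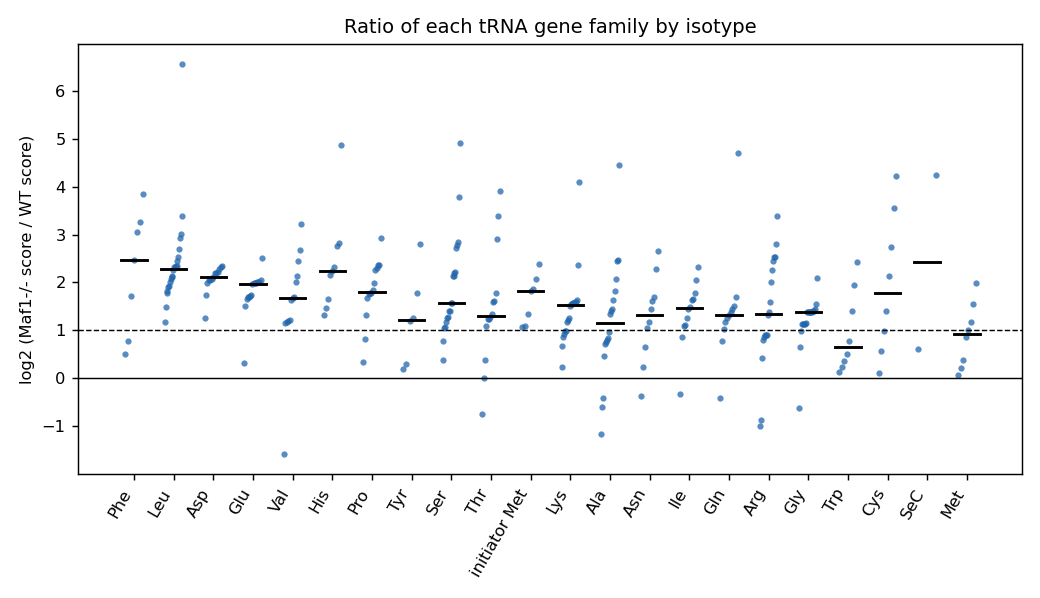
log2 ratio of the Maf1-/- score to the WT score (y axis) for each tRNA family above 0 in both groups, by isotype in the order of the ratio of sums; bars mark medians, the dashed line 2-fold and the solid line equal scores, and families shared by 2 isotypes are left out. Families of Leu, Asp, Pro and His all lie above 0, whereas those of Val, Ala and Arg reach below it.

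How alike the families of 1 isotype were differed between isotypes. All 22 Leu families above 0 in both groups were at least 2-fold higher in Maf1-/- liver, as were all 13 Asp families and all 9 His families. In Ala, 9 of 18 were at least 2-fold higher and 3 were lower. In Trp, 3 of 8 were at least 2-fold higher and none was lower. Of 45 groups of isotype and anticodon with a WT sum of 10 or more, 41 had a ratio of sums of at least 2, between 0.65 for Gly-ACC and 5.37 for Leu-TAG. Anticodons of the same amino acid could differ. Ala-AGC had a ratio of 2.01, beside 4.36 for Ala-CGC and 4.40 for Ala-TGC. The last 2 each rest mostly on 1 gene. In Maf1-/- liver, n-Ta27 held 67.25 of the Ala-CGC sum of 74.1, and n-Ta38 held 63.4 of the Ala-TGC sum of 71.5. As the median over families, Ala-AGC was at 1.94 (13 families), Ala-CGC at 3.33 (2 families) and Ala-TGC at 1.75 (3 families). The order of Ala-AGC and Ala-TGC thus depends on the measure. Val-TAC had 2.24, beside 4.57 for Val-CAC. Glu-CTC had 3.97 and Glu-TTC 3.22.

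Among families with a mean score of at least the median over families, the 6 with the highest ratios were from 6 anticodons of 5 isotypes. n-Tl11 (Leu-CAA) had a score of 27.04 in Maf1-/- liver and 2.57 in WT liver. n-Tv12 (Val-CAC) had 28 in Maf1-/- liver and 3 in WT liver. n-Tf4 (Phe-GAA) had 98.9 in Maf1-/- liver and 11.8 in WT liver. These were 10.5-fold, 9.33-fold and 8.36-fold. n-Tl29 (Leu-TAG) had 189.5 in Maf1-/- liver and 25.1 in WT liver, the highest WT score among the 6. n-Tt12 (Thr-CGT) had 22.5 in Maf1-/- liver and 3.0 in WT liver. n-Ts9 (Ser-AGA) had 24.7 in Maf1-/- liver and 3.45 in WT liver. Most of these WT scores were small, where 1 unit of score moves the ratio most. The mean score includes the Maf1-/- score, so this choice favours families with a high one. n-Tl11, n-Tv12, n-Tt12 and n-Ts9 had WT scores below that median and entered only through their Maf1-/- scores.

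At the other end of the same families, n-Tg1 (Gly-ACC) was the only one lower in Maf1-/- liver, with a score of 19 in Maf1-/- liver and 29.1 in WT liver, a ratio of 0.65. Its sequence is printed above. It is the only gene of the table with the Gly-ACC anticodon, and the other Gly anticodons had ratios of 2.03 to 2.66. The next lowest were n-Tc57 (Cys-GCA) with 17.9 in Maf1-/- liver and 16.6 in WT liver, and n-Tw7 (Trp-CCA) with 19.4 in Maf1-/- liver and 17.8 in WT liver. n-Ty2 (Tyr-GTA) had 26.0 in Maf1-/- liver and 21.1 in WT liver. n-Tm13 (elongator Met-CAT) had 23.1 in Maf1-/- liver and 17.7 in WT liver. n-Tc55 (Cys-GCA) had 23.4 in Maf1-/- liver and 15.6 in WT liver, a ratio of 1.49.

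Copies of 1 sequence shared much of the signal. Of the 249 sequences, 57 occurred at more than 1 locus, 241 loci in all, and these loci held 90.0% of the summed tRNA score in Maf1-/- liver and 90.4% in WT liver. The 5 sequences with the highest sums in Maf1-/- liver, at 34 loci, held 77.3% of the score in Maf1-/- liver and 79.4% in WT liver. The Gly-TCC sequence of n-Tg25, at 7 loci, had 3075 to 3181 per copy in Maf1-/- liver and 1401 to 1428 in WT liver. Its copies summed to 21649 in Maf1-/- liver and 9839 in WT liver, a ratio of 2.20. The Gly-GCC sequence of n-Tg12, at 8 loci, had 1001 to 1136 per copy in Maf1-/- liver and 346.0 to 419.6 in WT liver, and sums of 8221 in Maf1-/- liver and 3077 in WT liver, a ratio of 2.67. Copies of each of these Gly sequences thus had similar scores, so their values do not tell which copy was transcribed. Copies of the Lys-CTT sequence at 7 loci, n-Tk10 to n-Tk16, were less alike, with 92.1 to 376.6 in Maf1-/- liver and 47.1 to 127.6 in WT liver.

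Other sequences had unequal copies. Of the 50 sequences with all copies above 0 in both groups, the highest Maf1-/- score was within 1.1 times the lowest in 11, and more than 10 times the lowest in 6. In WT liver it was more than 10 times the lowest in 10. Of these 50 sequences, 42 had summed copies at least 2-fold higher in Maf1-/- liver and 3 had lower ones. The 3 copies of the Arg-ACG sequence of n-Tr6 had scores of 0.67 to 214.8 in Maf1-/- liver and of 0.50 to 85.5 in WT liver. The scores of such copies therefore hold signal that the shared gene sequence alone cannot place, and how reads in the flanks were counted is not given in the sources used here.

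His-GTG, whose precursor the study probed, showed this. By northern blot of refed knockout liver, the study reports higher levels of the precursors it probed and unchanged levels of the mature tRNAs. The increase it reports for the His-GTG precursor was smaller than the fold changes of the scores below as deposited. Its probe detected transcripts of 3 genes, and its signal was scaled to a loading control RNA. The scaling of the scores is unknown, so blot and scores are not on a common scale. Whether the scores stem from precursor or mature tRNA was not tested. Of the 10 His-GTG genes, 8 carry the sequence of n-Th5. The 3 neighbours on chromosome 2 had the highest scores, n-Th4 with 428.0 in Maf1-/- liver and 135.2 in WT liver, n-Th3 with 266.5 in Maf1-/- liver and 106.2 in WT liver, and n-Th5 with 453.4 in Maf1-/- liver and 101.2 in WT liver. n-Th8 on chromosome 3 had 77.6 in Maf1-/- liver and 28.2 in WT liver. The other 4 copies had 8.14 to 11.6 in Maf1-/- liver and 1.22 to 2.22 in WT liver. All 8 copies were higher in Maf1-/- liver, by 2.51-fold for n-Th3 at the least. Of the 2 genes with other sequences, n-Th2 had 6.49 in Maf1-/- liver and 0.22 in WT liver, and n-Th11 was at 0 in both.

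**Figure D4:**
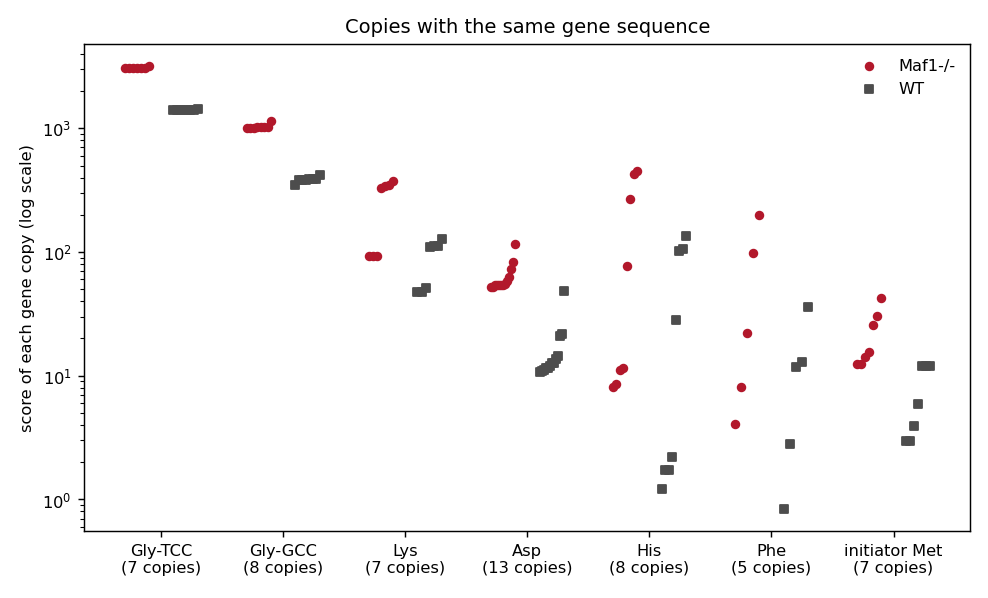
Score of each gene copy (y axis, log scale) for 7 sequences that occur at several loci, Maf1-/- liver (circles) left of WT liver (squares). Copies of each Gly sequence have similar scores, whereas copies of the His and Phe sequences range over more than 10-fold.

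Phe had the highest ratio of sums among whole isotypes. The 5 copies of the sequence of n-Tf6 had scores of 4.04 to 199.0 in Maf1-/- liver and 0.83 to 35.8 in WT liver. n-Tf6 itself, on chromosome 19, had 199.0 in Maf1-/- liver and 35.8 in WT liver, and with n-Tf4 it held most of the sum of 340.2 in Maf1-/- liver and 65.5 in WT liver. Ratios of the 7 Phe genes ranged from 1.43 for n-Tf5 to 14.4 for n-Tf2, whose WT score was 0.33.

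All 7 initiator Met genes carry 1 sequence, that of n-Tm6. Their scores ranged from 12.5 to 42.5 in Maf1-/- liver and from 2.95 to 11.9 in WT liver, with ratios of 2.10 to 5.25. The difference in WT score between any 2 copies was a whole number in all 21 pairs, within 0.001, and the Maf1-/- differences were whole in 15 of 21 pairs. Elongator Met genes, by contrast, had 9 sequences at 11 loci. The highest score was that of n-Tm13, given above, and n-Tm16 and n-Tm17 had 9.50 and 10.5 in Maf1-/- liver, against 9.0 for both in WT liver. Of 8 elongator Met families above 0 in both groups, 4 were at least 2-fold higher.

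The selenocysteine tRNA gene differs from the others in that its transcription relies on promoter elements upstream of the gene. The gene n-Ts2 had the highest SeC score, 437 in Maf1-/- liver and 285 in WT liver, a ratio of 1.53 below the lower quartile of the tRNA families. The second gene labelled SeC, n-Ts1, had 15.3 in Maf1-/- liver and 0.81 in WT liver. The sequence of n-Ts2 is shown because it is longer than that of most tRNA genes, with the anticodon in capitals.
n-Ts2, SeC-TCA, chr7:19886593-19886678, plus strand: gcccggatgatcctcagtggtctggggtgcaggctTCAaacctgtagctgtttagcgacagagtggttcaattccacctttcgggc

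The locus text marked an intron for 24 genes. Of these, 22 belonged to Tyr-GTA, Ile-TAT, Leu-CAA and Arg-TCT, the groups known to carry introns in mammals. In all 22, an intron that starts after the base following the anticodon could be placed so that 5 pairs were left in the anticodon stem. Intron lengths were chosen for the most pairs in this stem, so the pairs do not test them. They were 21 to 23 bases in Leu-CAA, 19 to 22 in Ile-TAT, 13 to 20 in Tyr-GTA and 12 to 14 in Arg-TCT. The 4 Leu-CAA genes, 2 Ile-TAT genes and 1 Tyr-GTA gene are shown because the exons of a group are nearly alike while the introns differ, so that reads over the intron can be assigned to a gene. Capitals mark the intron.
n-Tl9, Leu-CAA, chr13:21264706-21264811, minus strand: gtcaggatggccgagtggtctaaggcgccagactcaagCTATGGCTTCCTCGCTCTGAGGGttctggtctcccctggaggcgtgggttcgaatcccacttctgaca
n-Tl10, Leu-CAA, chr13:21292073-21292177, plus strand: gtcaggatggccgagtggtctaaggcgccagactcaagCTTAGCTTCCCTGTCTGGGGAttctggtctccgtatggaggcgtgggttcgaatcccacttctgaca
n-Tl11, Leu-CAA, chr13:22006707-22006812, plus strand: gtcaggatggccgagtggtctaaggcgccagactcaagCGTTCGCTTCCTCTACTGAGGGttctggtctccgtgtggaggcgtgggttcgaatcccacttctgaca
n-Tl12, Leu-CAA, chr11:58115976-58116082, minus strand: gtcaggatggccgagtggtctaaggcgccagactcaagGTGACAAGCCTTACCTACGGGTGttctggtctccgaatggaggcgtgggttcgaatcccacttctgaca
n-Ty9, Tyr-GTA, chr5:31190456-31190544, plus strand: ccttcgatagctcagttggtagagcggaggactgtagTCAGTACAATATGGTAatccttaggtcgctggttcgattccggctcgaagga
n-Ti16, Ile-TAT, chr7:29158018-29158112, plus strand: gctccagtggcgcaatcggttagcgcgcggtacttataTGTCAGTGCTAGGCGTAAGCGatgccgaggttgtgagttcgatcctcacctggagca
n-Ti17, Ile-TAT, chr17:84261284-84261376, plus strand: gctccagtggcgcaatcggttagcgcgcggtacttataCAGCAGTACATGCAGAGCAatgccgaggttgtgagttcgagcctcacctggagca

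The 4 Leu-CAA genes were all higher in Maf1-/- liver. n-Tl10 had 256.5 in Maf1-/- liver and 68.5 in WT liver, a ratio of 3.74. n-Tl12 had 251.3 in Maf1-/- liver and 66.1 in WT liver, a ratio of 3.80. n-Tl9 had 131.1 in Maf1-/- liver and 22.7 in WT liver, a ratio of 5.77, and n-Tl11, given above, had the lowest scores and the highest ratio.

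The Tyr-GTA genes ranged more widely. Of 9 genes given here, n-Ty9 had the highest score, 126.8 in Maf1-/- liver and 53.3 in WT liver, followed by n-Ty10 with 98.7 in Maf1-/- liver and 28.6 in WT liver. The 6 genes n-Ty3 to n-Ty8 lie on chromosome 13. Of these, n-Ty3, n-Ty4 and n-Ty5 had 8.75, 6.75 and 4.0 in Maf1-/- liver, against 0 in WT liver, and n-Ty6 was at 0 in both. n-Ty7 had 5.75 in Maf1-/- liver and 5.0 in WT liver, and n-Ty8 had 22.8 in Maf1-/- liver and 10.0 in WT liver.

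Of the Ile-TAT genes, n-Ti17 had 78.8 in Maf1-/- liver and 28.8 in WT liver, and n-Ti16 had 43.2 in Maf1-/- liver and 20.3 in WT liver. These were 2.74-fold and 2.13-fold. n-Ti14 had 8.80 in Maf1-/- liver and 1.75 in WT liver, and n-Ti15 had 1.801 in Maf1-/- liver and 2.25 in WT liver. The gene n-Ti13, without an intron, was at 0 in Maf1-/- liver and at 3.04 in WT liver. Arg-TCT was led by n-Tr22, with 185.5 in Maf1-/- liver and 98.5 in WT liver, a ratio of 1.88. Among 17 intron families above 0 in both groups, 13 (76.5%) were at least 2-fold higher, beside 78.8% of the 259 families without an intron. The median log2 ratio was 1.79 with an intron and 1.58 without.

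**Figure D5:**
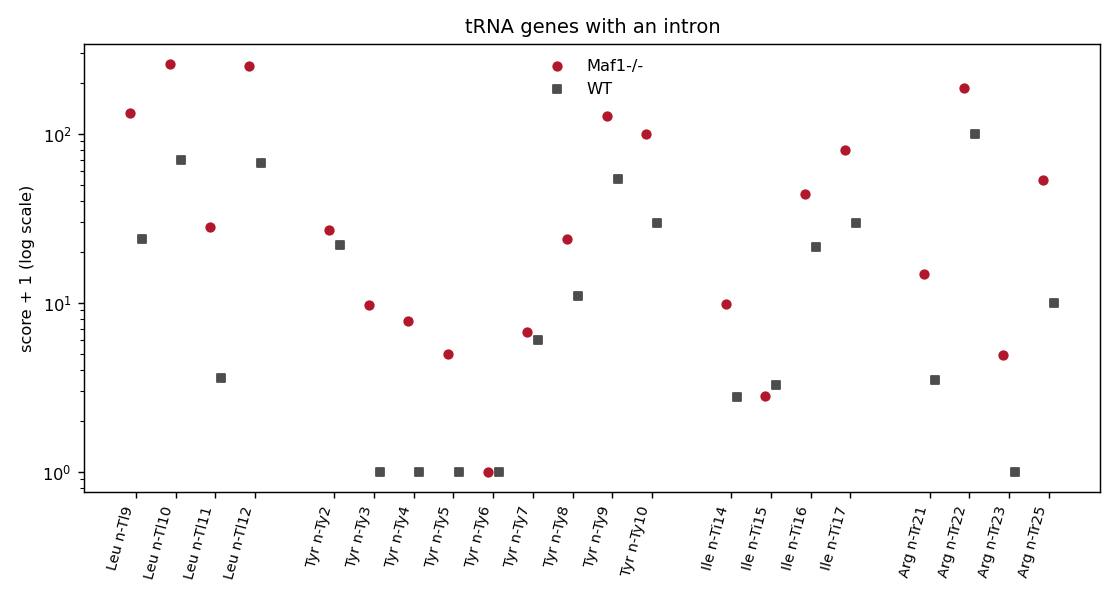
Score plus 1 (y axis, log scale) of 21 of the 22 Leu, Tyr, Ile and Arg genes with an intron, Maf1-/- liver (circles) left of WT liver (squares). All 4 Leu genes are higher in Maf1-/- liver, and n-Ti15 is the only gene of the 21 that is lower in it.

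Ser-CGA, whose precursor was probed at its trailer, has no intron. n-Ts12 had 109.5 in Maf1-/- liver and 25 in WT liver, n-Ts13 had 100.0 in Maf1-/- liver and 58.0 in WT liver, and n-Ts14 had 20.6 in Maf1-/- liver and 3.0 in WT liver. All 3 were higher in Maf1-/- liver, with ratios of 4.38, 1.72 and 6.88, beside 1.30 to 30.2 over the Ser families.

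For the isotypes not yet described gene by gene, the gene with the highest Maf1-/- score was n-Td16 for Asp with 337.5 in Maf1-/- liver and 73.6 in WT liver, and n-Tr6 for Arg with 214.8 in Maf1-/- liver and 85.5 in WT liver. For Lys it was n-Tk18 with 665.8 in Maf1-/- liver and 223.1 in WT liver, and for Thr n-Tt8 with 78.5 in Maf1-/- liver and 22.8 in WT liver. For Ala it was n-Ta9 with 68.3 in Maf1-/- liver and 40.6 in WT liver, and for Asn n-Tn7 with 67.1 in Maf1-/- liver and 29.6 in WT liver. All of these were higher in Maf1-/- liver. n-Tv23 for Val had 54.0 in Maf1-/- liver and 24.3 in WT liver, and n-Tq14 for Gln had 47.5 in Maf1-/- liver and 19.95 in WT liver. n-Tw4 for Trp had 43.7 in Maf1-/- liver and 16.4 in WT liver, and n-Tp18 for Pro had 20.7 in Maf1-/- liver and 6.07 in WT liver. Across these 10 genes the ratio ran from 1.68 for n-Ta9 to 4.58 for n-Td16. Their choice by the Maf1-/- score favours genes that are higher in Maf1-/- liver. By WT score the choice would differ for Trp and Arg, with n-Tw7 and n-Tr22 at ratios of 1.09 and 1.88.

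Most Cys genes were without signal. Of 57 Cys-GCA genes, 47 were at 0 in both groups, and the 10 others summed to 71.2 in Maf1-/- liver and 41.8 in WT liver. The most frequent sequence among the genes at 0 was at 29 loci, and n-Tc19 is 1 of them. The gene with the highest score, n-Tc55, has a sequence found at 4 loci. Both are shown, with capitals at the bases that differ between them.
n-Tc55, Cys-GCA, chr11:97849560-97849631, minus strand: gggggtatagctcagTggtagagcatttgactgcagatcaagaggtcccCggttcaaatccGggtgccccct
n-Tc19, Cys-GCA, chr6:48313531-48313602, minus strand: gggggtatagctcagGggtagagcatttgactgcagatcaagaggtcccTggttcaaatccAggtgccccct
Counted from 1 at the first base of the gene, with the base of n-Tc19 first, the differences are G16T, T50C and A62G. Base 16 lies in the A box. Bases 9 to 20 read agctcagtggta in 7 Cys genes, all with a score, which together held 68.8 in Maf1-/- liver and 41.0 in WT liver. They read agctcaggggta in 43 Cys genes, 40 of them at 0 in both groups, which together held 2.37 in Maf1-/- liver and 0.82 in WT liver. Of the 7, 1 lies on chromosome 6, and of the 43, 41 do. Chromosome and sequence thus cannot be told apart in these genes. On chromosome 6 as a whole, 46 of 54 tRNA genes were at 0 in both groups, but most of these 54 are Cys genes already counted above.

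The B box was searched as GTTCGA and, failing that, GTTCAA, on the strand of the gene. GTTCGA was in 257 genes, of which 9.73% were at 0 in both groups, with a median score of 17.5 in Maf1-/- liver and 5.18 in WT liver. GTTCAA was in 134 genes, of which 45.5% were at 0 in both groups, with a median of 0.13 in Maf1-/- liver and 0.01 in WT liver. Most Cys genes are in the second class, and without them it held 80 genes, 21.3% at 0 in both groups, with medians of 3.19 in Maf1-/- liver and 1.15 in WT liver. On the other strand of the same genes GTTCGA was found in 2.31% and GTTCAA in 0.23%, and among the 238 other pol III loci GTTCGA was in the first 72 bases of 10.1%, many of which are repeats with a related promoter. The median log2 ratio was 1.63 over families of the first class and 1.45 over those of the second, so the classes differed in level more than in ratio.

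A run of TTTT within 30 bases after the gene was found for 359 genes, or 82.9%, beside 10.2% of the same windows on the other strand. Genes with the run had a median score of 8.80 in Maf1-/- liver and 3.0 in WT liver, and 19.5% of them were at 0 in both groups. Of the 74 without it, 36.5% were at 0 in both groups and the median was 0.29 in Maf1-/- liver and 0.01 in WT liver. Their median log2 ratios were 1.57 and 1.58. A missing match says only that these letters are not in the window.

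Genes lay in clusters. Another tRNA gene was within 1000 bases of 172 genes, which held 74.7% of the summed score in Maf1-/- liver and 76.2% in WT liver, with 13.4% at 0 in both groups. Of the 261 others, 28.4% were at 0 in both groups. The median log2 ratio was 1.64 with a near neighbour and 1.56 without. On chromosome 1, 24 genes for Asn, Asp, Gly, Leu and Glu between bases 172964073 and 173033245 held 42.5% of the summed score in Maf1-/- liver and 45.4% in WT liver. In this block the order Glu, Gly, Asp, Leu, Gly recurs with the same scores for Glu, Leu and both Gly genes. Its Asp genes were less alike, n-Td3 with 83.1 in Maf1-/- liver and 20.99 in WT liver, and n-Td6 and n-Td7 each with 54.5 in Maf1-/- liver and 11.6 in WT liver. n-Tg20, n-Tg23 and n-Tg24 (Gly-TCC) each had 3080 in Maf1-/- liver and 1402 in WT liver, and n-Tg17, n-Tg18 and n-Tg19 (Gly-GCC) each had 1022 in Maf1-/- liver and 389.4 in WT liver. Triplets with 1 pair of scores were counted as 1 family. Chromosome 13 held most genes, 106, with 9.43% of the score in Maf1-/- liver and 7.93% in WT liver. Of the 276 families above 0 in both groups, 83 had a member there. So had 8 of the 11 families lower in Maf1-/- liver, most of which had small scores.

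The annotation of the same build placed 39 tRNA genes inside a protein-coding gene, 17 of them on its strand and 22 on the other, and 6 overlapped an exon. The median log2 ratio was 1.70 over 11 families on the strand of the host and 2.04 over 15 on the other strand, beside 1.57 over the 252 families outside. n-Tg20 lies in Fcgr3, n-Tg14 in an intron of Trim2, and n-Tn7 overlaps an exon of Ndufs7.

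In the per-library table, where 13304 genes were tested with limma (calls needed an adjusted p below 0.01 and a change of over 0.5 in log2), Maf1 had log2 values of -1.39, -2.81, 0.49, -2.29 and -1.16 in the Maf1-/- libraries, against 2.64 to 3.69 in the 7 WT libraries. The groups did not overlap (log2 fold change -4.79 ± 0.44 SE, adjusted p = 0.000601, exact permutation p = 0.00126, two-sided, the smallest that the 792 divisions allow), as the labels state. Only 0.015% of genes passed in this fit, Maf1 and Gm35339, although 3069 had an unadjusted p under 0.05. The study added factors for unwanted variation, which were left out here, and reports far more genes at the same thresholds. Scaled library sizes, estimated from the steps between low values, were 34570624 to 40571968 reads in the Maf1-/- libraries and 34064393 to 51071868 in the WT libraries. Of 22 markers of liver cell types and blood, 20 were listed and 0 passed, 11 were higher and 9 lower. Of these 20, 3 had an unadjusted p under 0.05 with limma, beside 23.1% of all genes. They were Cps1 of hepatocytes (log2 difference 0.58), Dcn of stellate cells (0.62) and Sox9 of bile duct (-0.67). The part of the markers in the scores was not tested. Of 6 hepatocyte markers, 4 were higher and 2 lower, and Alb was at 16.5 ± 0.20 in Maf1-/- liver and 16.4 ± 0.14 in WT liver (log2, SD, n = 5 and 7), and the blood marker Hbb-bs was at 1.72 ± 1.45 in Maf1-/- liver and 2.96 ± 1.38 in WT liver.

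Of a list of 45 genes that make and process tRNAs, 42 were in the table and 0 passed with limma. Of these 42, 18 had an unadjusted p under 0.05 with limma, beside 23.1% of all genes. By direction, 27 were higher and 15 lower, and the median log2 fold change of the 42 was 0.08, beside -0.02 over all genes. Bdp1, a subunit of TFIIIB, had log2 values of 5.85 ± 0.18 in Maf1-/- liver and 5.36 ± 0.33 in WT liver, a difference of 0.50 ± 0.16 SE (adjusted p = 0.192 with limma). Gtf3c5, a subunit of TFIIIC, had 2.83 ± 0.27 in Maf1-/- liver and 3.21 ± 0.13 in WT liver (adjusted p = 0.192). Rpph1, the RNA of RNase P, which trims the 5′ end of tRNA precursors and is itself made by pol III, had 6.47 ± 0.93 in Maf1-/- liver and 8.13 ± 1.17 in WT liver, a difference of -1.66 ± 0.57 SE (adjusted p = 0.192). Without WT library 2, which stood apart from the others, 4 of the 42 and 904 genes in all passed. Those 904 are 6.79% of all genes. With library weights 8 of the 42 passed, beside 15.2% of all genes, and with 1 factor taken from the residuals 4 did, beside 8.09%.

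Mitochondrial tRNAs are made by another polymerase. Of 8 listed genes, 4 were higher, 4 lower and 0 passed with limma, 1 of them at an unadjusted p under 0.05, beside 23.1% of all genes. That gene, mt-Tm, had log2 values of 0.25 ± 0.54 in Maf1-/- liver and 0.80 ± 0.36 in WT liver (adjusted p = 0.207). mt-Ta had -1.35 ± 1.30 in Maf1-/- liver and -2.29 ± 1.37 in WT liver (adjusted p = 0.387), and mt-Tw had 1.28 ± 0.66 in Maf1-/- liver and 1.67 ± 0.64 in WT liver (adjusted p = 0.46).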

How the data were processed

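Total RNA of mouse liver was sequenced after depletion of ribosomal and globin RNA. The deposited score table holds 1 linear score per pol III locus and group, pooled by the authors, on mm9 coordinates. How the authors counted and scaled these scores is not given in the sources used here, so their depth is unknown and no interval is given. Fractions in the scores look like reads shared over loci that match equally well. The deposited per-library table holds log2 values made by the authors from reads per scaled library size (GRCm38). The submitters' processing notes name cutadapt 1.8, STAR 2.5.2b, HTSeq 0.6.1, RSEM 1.2.31, edgeR 3.14.0 and limma 3.28.21.

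tRNA loci were taken by their locus text. Loci with identical score pairs counted as 1 family, and log2 ratios used families above 0 in both groups. Gene sequences and flanks were read from NCBIM37 with pysam 0.24.0. For the libraries, limma (version 3.58.1, R 4.3.3) was fitted with genotype as the only term and no trend. Its p-values were adjusted by the Benjamini-Hochberg method across the 13304 genes, and the fit was tested on simulated data. Genes named were, per isotype, the one with the highest Maf1-/- score, the 6 highest and 6 lowest ratios among families with a mean score of at least 11.7 (the median), the anticodons probed by the study, initiator Met and SeC, and the 3 genes of smallest p per list. Some genes and sequences under this rule are not reported here. Genes named for their copies, for Cys, for position and n-Tm16, n-Tm17, n-Tr22 and the other Phe, Ala and Val values were chosen after their values were seen. Members and lists were chosen with earlier results of these data known. Alternatives covered floors, scaling, family definition, left-out loci, left-out libraries, a replicate block, weights and a residual factor.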

Additional observations from a re-analysis of the deposited data

How the results depend on the processing

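Scaling decides the size of the ratios. With Maf1-/- scores divided by 2.05, the median ratio of the other pol III loci, the median log2 ratio was 0.54, 85 families (30.8%) were at least 2-fold higher and 12 at least 2-fold lower, the ratio of sums was 1.31, and 2 isotypes were at 2 or more, with Cys at 0.83, elongator Met at 0.77 and SeC at 0.77, below WT. In settings chosen after seeing the data, scores divided by the mean scaled library size of the group gave a median log2 ratio of 1.72 and a ratio of sums of 2.98, and by the summed sizes 2.21, 4.17 and 0 families 2-fold lower. Other floors gave a median log2 ratio of 1.39 with a pseudocount of 1, and 1.46, 90 families higher and 0 lower with both scores at least 10 (chosen after seeing the data). At least 2-fold lower were 5 with every locus counted and 0 with both scores at or above the 25th percentile. With copies of a sequence summed (added after seeing the data), 111 of 148 were 2-fold higher. At 4-fold, 91 families were higher and 0 lower, and at 1.5-fold 7 were lower. Without the 10 families of highest Maf1-/- score the ratio of sums was 2.92. Other values of the median, the sums and the counts stayed within 0.1 on the log2 scale or 1.5 times. Ratios of single isotypes moved by more than 0.1 on the log2 scale in 11 of 22 with a pseudocount of 1, in 10 of 21 with both scores at least 10 (Cys 1.28, Trp 1.84), in 14 of 22 as the median over families, and in 12 of 22 without the family of highest Maf1-/- score (SeC 18.9), all still above 1.

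No paired analysis was possible for the scores because each group has 1 value. In the library table, same-numbered libraries correlated between -0.46 and 0.23. These few values, not set beside libraries of different number, cannot show whether the numbers pair mice. With the replicate block 1 gene passed and Maf1 (log2 fold change -4.73) had an adjusted p of 0.0792. Leaving out each library gave 2 to 904 genes past the limma threshold, a Maf1 log2 fold change of -5.28 to -4.45, and 0 to 4 machinery genes. WT library 2 gave the 904 and the 4. Library weights gave 2019 genes and 8 machinery genes, and 1 residual factor 1076 and 4. The mitochondrial count was 0 in each of these fits.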
